A study of Sus scrofa with 20 samples.

Results

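The phase I and phase II detoxification families of the array were taken as every gene whose symbol in the platform annotation begins with CYP, UGT, GST, SULT or ALDH followed by a digit, or by an isoform letter and a digit. GSTA1, UGT2B31 and CYP51 genes were left out. The rule gave 46 of the 6765 genes that had probe sets with 1 symbol, read from 70 probe sets, and each gene was represented by its probe set with the highest mean over the 20 arrays. They comprised 27 CYP, 11 ALDH, 5 GST and 3 SULT genes, and no UGT gene other than UGT2B31 was present. The values are log2 units of the Affymetrix GeneChip Porcine Genome Array, hybridised with RNA of scraped ileal mucosa, 1 piglet per array. All animals were Landrace × Large white × Duroc crosses. Piglets that stayed with the sow, without access to the sow's diet, were sampled at 14 days (S14D, n = 3), 21 days (S21D, n = 4), 28 days (S28D, n = 4) and 35 days (S35D, n = 3). Piglets weaned at 21 days onto a commercial weaning diet were sampled 7 days later (21W28D, n = 3) or 14 days later (21W35D, n = 3). No source used here ties an array to a litter, and p-values therefore measure the spread between these piglets only.

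Phase I enzymes add or expose a reactive group on a foreign compound, a drug, a steroid or a fatty acid. Cytochromes P450 (CYP) do this as heme monooxygenases that take electrons from POR, and aldehyde dehydrogenases (ALDH) oxidise aldehydes to acids. Phase II enzymes then join the product to glutathione (GST), sulfate (SULT) or glucuronic acid (UGT), which makes it more soluble and ready for export. The intestinal epithelium is a first site of such metabolism for what is eaten, and CYP3A enzymes are prominent in enterocytes.

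Whole-array values bear on all results below. Array medians lay between 5.07 and 5.34, and 41.6% of all values lay within 1 unit of the floor of 2.08. Of all arrays, 21W35D replicate 2 correlated least (0.970) with the others of its group. The 3 arrays labelled S35D had higher correlations with the 21W35D mean (0.989, 0.994 and 0.993) than with the S28D mean (0.973, 0.991 and 0.987). Among those labelled 21W28D, replicates 2 and 3 were closer to S28D (0.994 and 0.997) than to 21W35D (0.985 and 0.988), and replicate 1 was about as close to either (0.989 and 0.991). Replicates 1 and 3 of 21W35D were themselves closer to S28D (0.995 and 0.994) than to the other arrays of their group (0.990 and 0.992). The mean of 12 interferon-induced genes, each centred over all arrays, was 2.29 in the arrays labelled S35D and 1.70 in 21W35D, against 0.15 in S28D and -1.23 in the arrays labelled 21W28D. With deposited labels, limma called 612 of 6765 genes (adjusted p under 0.05) from S28D to S35D and 0 from S28D to 21W28D. With exchanged labels the counts were 0 and 612. The paper reports far more genes differing between weaned and suckling piglets of the younger age than between the older suckling ages. By PCR it reports higher interferon-induced genes in weaned than in suckling piglets of the oldest age. Both reports match the exchanged labels and not the deposited ones. Calls that rest on S35D or 21W28D, and the larger uncalled differences, are therefore also given after exchange of these 2 labels.

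Of the 46 genes, 26 reached 4 log2 units in at least 1 array, namely 11 CYP, 8 ALDH, 5 GST and 2 SULT genes. The other 20 stayed under 4 in all 20 arrays, and 17 of these under 2.2. This was 43.5% of the detoxification genes, against 20.8% of all genes with 1 symbol. CYP genes made up 16 of the 20. Among them were CYP1A1, the classic target of the aryl hydrocarbon receptor, CYP2E1, which oxidises ethanol, and CYP24A1 and CYP27B1, which degrade and activate vitamin D. CYP7A1 and CYP8B1 of bile acid synthesis, CYP11A1, CYP17A1 and CYP19A1 of steroid synthesis and the retinoic acid hydroxylase CYP26A1 also stayed below 4. SULT2A1, a hydroxysteroid sulfotransferase, did not exceed 2.09 in any array. A value at this floor says only that the probe set was not measured above background. CYP2C49 exceeded 4 in 2 arrays, S28D replicate 1 with 4.61 and 21W35D replicate 2 with 5.12, and CYP3A39 in 1 array, 21W35D replicate 2 with 4.58. Some genes that reached 4 did so only through their brightest probe set. The other probe sets of ALDH4A1, CYP27A1, CYP2C42, CYP3A39 and GSTA4 were at the floor in every array. That of GSTZ1 did not exceed 2.14, and those of CYP19A3, which had 8 probe sets, did not exceed 2.64.

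Several members are neighbours in the Sscrofa11.1 annotation. CYP3A46 lies directly between CYP3A22 and CYP3A29, with no protein-coding gene in between on either side. CYP2C42, CYP2C49, CYP2C32 and CYP2C36 lie in this order, each with 1 protein-coding gene between it and the next, and CYP19A1 is next to CYP19A3. CYP3A22 was under 4 in every array, and both of its neighbours were above 4 in every array. Probe sets of close family members can share target sequence, and cross-hybridisation was not tested.

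**Figure D1:**
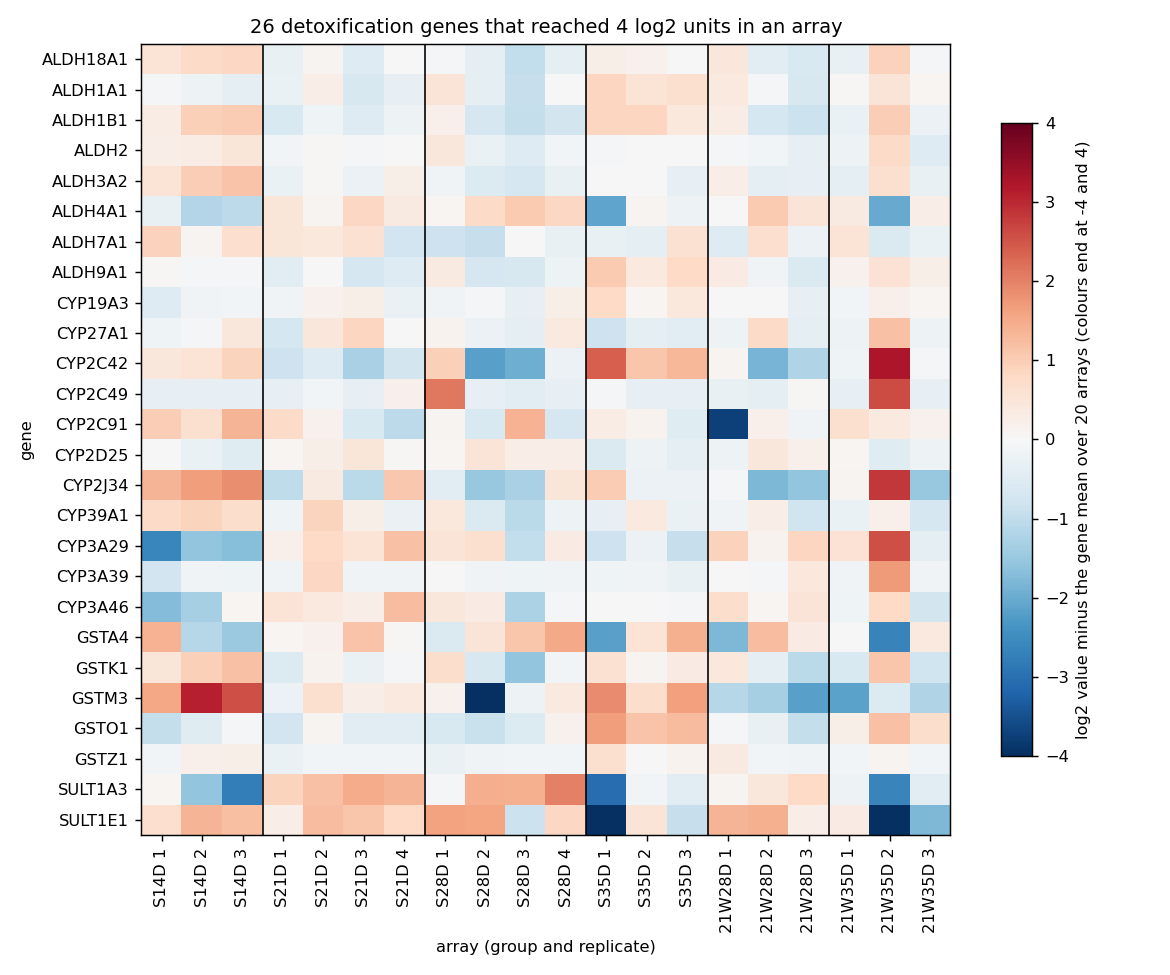
Each cell is the log2 value of 1 gene (vertical axis) in 1 array (horizontal axis, by group and replicate) minus that gene's mean over 20 arrays, for the 26 detoxification genes that reached 4 log2 units, with vertical lines between groups. CYP3A29 is below its mean in all 3 S14D arrays, GSTM3 is below its mean in all 6 arrays labelled as weaned, and 21W35D replicate 2 holds the highest value of 8 of the 26 genes.

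The first comparison asked what changed between 14 and 21 days of suckling. Of the 46 detoxification genes, 5 passed (limma, Benjamini-Hochberg adjusted p under 0.05), 3 higher and 2 lower at 21 days. The background was 20.3% of all 6765 genes called in this comparison, so that the count of members was below it. Of the 26 members that reached 4 log2 units, 19.2% were called, against 25% of all genes that did so. CYP3A29 and CYP3A46 rose, as did SULT1A3, while ALDH1B1 and ALDH3A2 fell. The median difference of the 26 genes that reached 4 was -0.25, against 0.03 for all genes that did so. Markers of other cells moved in the same comparison: 5 of 8 T cell, 2 of 3 B cell, 6 of 7 proliferation and 5 of 12 interferon-induced genes were called higher. Of 10 mature enterocyte markers, FABP6 and SLC5A1 were called higher, by 1.98 and 0.81, and the median difference of the 10 was -0.32. Of 10 epithelial markers none was called. The T cell score was -2.28 to -1.13 in S14D and -0.62 to 0.30 in S21D, the proliferation score -3.00 to 0.04 and 0.34 to 0.93, and the interferon-induced score -2.57 to -1.73 and -1.10 to -0.33. Of 7 smooth muscle markers, only ACTA2 was called, and it was lower, with scores of 0.61 to 0.87 in S14D and of -0.52 to -0.18 in S21D. Their part in the results was not tested.

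CYP3A29, a porcine drug-metabolising enzyme of the CYP3A subfamily, had levels of 9.52, 10.56 and 10.42 in S14D and of 12.31, 12.91, 12.68 and 13.31 in S21D. Every S21D array was higher than every S14D array, and the lowest S21D value was above the highest S14D value by more than the range within either group. The difference was 2.64 ± 0.57 log2 units (SE), or 6.23-fold, with an adjusted p of 0.00877 (limma). It was called in all 20 fits that left out 1 array, with differences of 2.32 to 2.83, and in all 13 other alternatives. Later levels remained above those of S14D in each array: 11.15 to 12.76 in S28D, 11.20 to 11.89 in the arrays labelled S35D, 12.27 to 13.06 in those labelled 21W28D and 11.75 to 14.69 in 21W35D.

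CYP3A46, its neighbour, had levels of 9.26, 9.68 and 11.07 in S14D and of 11.55, 11.39, 11.27 and 12.24 in S21D. The groups did not overlap, although S14D replicate 3 was close to the lowest S21D array. The difference was 1.61 ± 0.48 (SE), or 3.05-fold, with an adjusted p of 0.0368 (limma). It was lost when S14D replicate 1 or 2, or any of the 4 S21D arrays, was left out.

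SULT1A3, named by the annotation as a phenol sulfotransferase that conjugates catecholamines and phenols, had levels of 8.45, 6.80 and 5.59 in S14D and of 9.26, 9.55, 9.84 and 9.72 in S21D. The S14D arrays were widely spread and all lay below the closely grouped S21D arrays. The difference was 2.65 ± 0.80 (SE), or 6.27-fold, with an adjusted p of 0.039 (limma). This call held in 14 of the 20 fits that left out 1 array and in 7 of 13 other alternatives. In the same S14D arrays the B cell score, the mean of the 3 measured markers CD79B, BLNK and SPIB of 10 listed, was 0.20, -1.03 and -3.69, in the same order as SULT1A3, and in S21D it was 0.63 to 1.17. With this score added to the fit as a covariate, an alternative chosen after seeing the data, the difference was 0.78 and the adjusted p was 0.419. CYP3A29 and CYP3A46 then rose by 3.48 and 2.43 with adjusted p of 0.00511 and 0.00834. Over all 6765 genes the share called fell from 20.3% to 4.45% with this score. With the epithelial score in the fit instead, the SULT1A3 difference was 1.72 and its adjusted p was 0.185, and 8.25% of all genes were called. The 3 arrays with the lowest B cell scores, S14D replicate 3, 21W35D replicate 2 and S35D replicate 1, were also the 3 with the lowest SULT1A3 levels. In bulk mucosa, fewer cells of a type and less RNA per cell cannot be told apart.

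**Figure D2:**
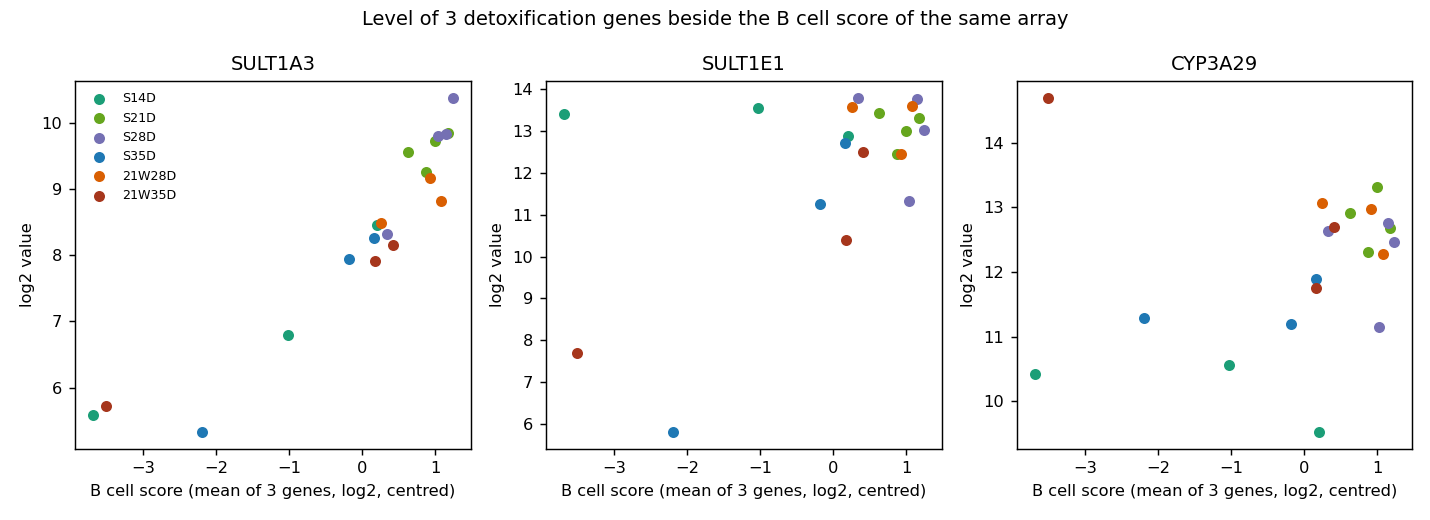
Log2 level of SULT1A3, SULT1E1 and CYP3A29 (vertical axes) in each of 20 arrays against the B cell score of the same array (horizontal axis, mean of 3 genes in log2 units after centring), with 1 point per array coloured by group. SULT1A3 is lowest in the 3 arrays with scores of -3.69, -3.51 and -2.20, whereas CYP3A29 is highest, 14.69, in the array with a score of -3.51.

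Among the aldehyde dehydrogenases, ALDH3A2, which oxidises long-chain fatty aldehydes, had levels of 12.00, 12.45 and 12.61 in S14D and of 11.21, 11.52, 11.25 and 11.69 in S21D. All S14D arrays were higher than all S21D arrays. It fell by 0.94 ± 0.24 (SE), with an adjusted p of 0.0221 (limma). Its other probe set, not used here as the dimmer one, averaged 8.31 in S14D and 8.33 in S21D, and with both probe sets averaged the adjusted p was 0.209.

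ALDH1B1, a mitochondrial enzyme that oxidises acetaldehyde and retinaldehyde, had levels of 12.25, 12.92 and 12.96 in S14D and of 11.35, 11.78, 11.45 and 11.75 in S21D, again without overlap. It fell by 1.13 ± 0.36 (SE), with an adjusted p of 0.048 (limma), and this call held in 5 of the 20 fits that left out 1 array. The epithelial score was 0.04 to 0.48 in S14D and -0.40 to 0.06 in S21D, and with it as a covariate the differences of ALDH3A2 and ALDH1B1 were -0.56 (adjusted p = 0.0442) and -0.59 (adjusted p = 0.17). With the B cell score they were -0.46 (adjusted p = 0.288) and -0.49 (adjusted p = 0.569). The part of epithelial content in these falls was not tested further.

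Of the members that were not called between 14 and 21 days, GSTM3, a mu class glutathione transferase, differed most. Its levels were 9.26, 10.85 and 10.30 in S14D and 7.48 to 8.37 in the 4 S21D arrays, with no overlap, and the difference was -2.14 ± 0.89 (SE, adjusted p = 0.125, limma). The shared spread in this fit included S28D replicate 2, where GSTM3 was 3.35, and without that array the adjusted p was 0.00902. That array is of neither group and was singled out by its GSTM3 value. The share of all genes called in the fit without it is not given. CYP2J34, a member of the fatty acid epoxygenase subfamily, was 11.73 to 12.23 in S14D and 9.30 to 11.44 in S21D (difference -1.78 ± 0.87, SE, adjusted p = 0.195), and CYP2C42 was 7.74 to 8.18 and 5.98 to 6.75 (difference -1.49 ± 0.84, SE, adjusted p = 0.273). Of the 46 members, 9 had an unadjusted p under 0.05, against 6822 of 23999 probe sets.

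Genes of the same pathways outside the 5 families were counted from 6 lists. Together 11 of their 53 measured genes, or 20.8%, were called between 14 and 21 days, close to the background of 20.3%. Of 17 measured partners of phase I metabolism, 5 were called. NQO1, a quinone reductase, rose by 1.88 ± 0.45 (SE), and the flavin monooxygenase FMO5, the aldehyde reductase AKR7A2 and the lactonase PON2 fell, with differences of -1.65, -1.54 and -1.32. The fifth, FMO1, stayed under 4 in every array, and its difference is not given. In glutathione supply 2 of 11 were called, both lower. Glutathione synthetase GSS had a difference of -0.79 ± 0.18 (SE), and the peroxidase GPX3 averaged 6.07 in S14D and 2.35, near the floor, in S21D, so that the size of its fall is not measured. In heme supply and turnover 2 of 7 were called, UROD at -0.63 and HMOX1 at -1.34, and of 6 transporters only ABCC6 was, at 1.22. PAPSS1, which makes the sulfate donor of the SULT enzymes, had a difference of -0.41 and was the 1 called gene of 6 on the list of conjugation supply and other transferases, and none of 6 measured regulators was called. AHR, ARNT, RXRA and PPARA, 4 of these regulators, stayed under 4 in every array.

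From 21 to 28 days none of the 46 detoxification genes was called by limma. None had an unadjusted p under 0.05, against 389 of 23999 probe sets. With the methods' t-test none passed either, whether at an unadjusted p under 0.05 with a 2-fold difference or after Benjamini-Hochberg adjustment. The background was 0.0148%, 1 gene of 6765. The members with the largest differences were GSTM3 (-1.27 ± 0.83, SE) and CYP3A46 (-0.74 ± 0.44, SE). For GSTM3, S28D replicate 2 (3.35) was the only S28D array below all S21D arrays. For CYP3A46, S28D replicates 3 and 4 (9.75 and 10.95) were below all S21D arrays. S28D replicate 3 held the lowest value of 7 of the 26 members that reached 4, the most of any array.

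**Figure D3:**
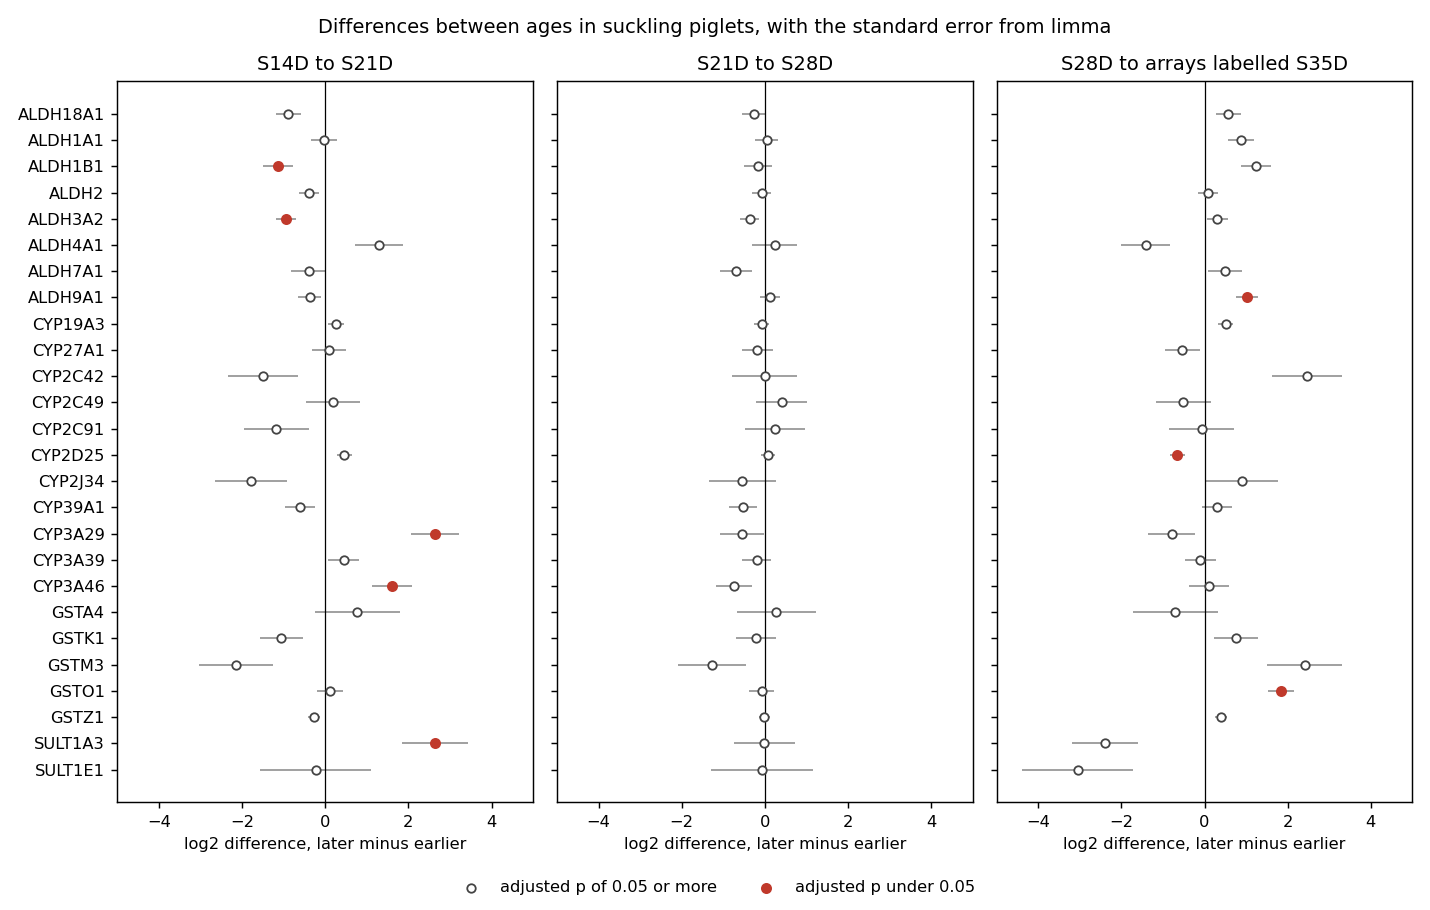
Log2 difference with its standard error (horizontal axis) for the 26 detoxification genes that reached 4 log2 units (vertical axis), in the 3 consecutive age comparisons of suckling piglets, later minus earlier. Filled points passed an adjusted p of 0.05: 5 genes from S14D to S21D, none from S21D to S28D and 3 from S28D to the arrays labelled S35D.

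From S28D to the arrays labelled S35D, 3 of the 46 members passed, GSTO1 and ALDH9A1 higher and CYP2D25 lower. This share was no higher than the background of 9.05% of all genes. At an unadjusted p under 0.05 (limma) there were 12 members, against 5600 of 23999 probe sets. Of the 26 members that reached 4 log2 units, 11.5% were called, against 11.3% of all genes that did so. GSTO1, an omega class glutathione transferase with thioltransferase and dehydroascorbate reductase activity, had levels of 11.53, 11.26, 11.61 and 12.32 in S28D and of 13.81, 13.29 and 13.42 in the arrays labelled S35D. All 3 arrays labelled S35D lay above every S28D array. The difference was 1.83 ± 0.31 (SE), or 3.55-fold, with an adjusted p of 0.00967 (limma). This call was lost without S35D replicate 1 (adjusted p 0.0567, limma) and held in 8 of 12 other alternatives. GSTO1 was 12.39, 13.32 and 12.85 in 21W35D and 12.10, 11.84 and 11.19 in the arrays labelled 21W28D. The high levels were thus in the 2 groups labelled as 35 days old. After exchange of the labels S35D and 21W28D, these would be the 2 weaned groups.

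ALDH9A1, which oxidises aminoaldehydes on the route to carnitine and GABA, had levels of 12.69, 11.64, 11.69 and 12.11 in S28D and of 13.38, 12.70 and 13.11 in the arrays labelled S35D. The highest S28D array and the lowest array labelled S35D were nearly equal. The difference was 1.03 ± 0.27 (SE), with an adjusted p of 0.0361 (limma). This call held in 15 of the 20 fits that left out 1 array and in 6 of 12 other alternatives. CYP2D25, a porcine vitamin D 25-hydroxylase, had levels of 11.17, 11.60, 11.37 and 11.37 in S28D and of 10.53, 10.90 and 10.72 in the arrays labelled S35D, without overlap. It fell by 0.66 ± 0.18 (SE), with an adjusted p of 0.043 (limma). The CYP2D25 call held in 9 of the 20 fits that left out 1 array and in 4 of 12 other alternatives. Its other probe set moved in the opposite direction, with a mean of 4.10 in S28D and a higher one in the arrays labelled S35D, and with both probe sets averaged the difference was 0.62 (adjusted p = 0.259).

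When the labels S35D and 21W28D were exchanged, none of these 3 genes differed at the threshold between S28D and S35D. The differences of GSTO1, ALDH9A1 and CYP2D25 became 0.03, 0.16 and -0.13, and no gene of the 6765 was called. The 3 genes were then called from S28D to 21W28D, that is between weaned and suckling piglets of 28 days. The epithelial score was -0.76 to -0.11 in S28D and 0.32 to 0.73 in the arrays labelled S35D, and CDH1, CDH17, KRT18 and CLDN4, 4 of its 10 measured markers, were called higher. With that score as a covariate the differences were 0.83, 0.07 and -0.01, and no gene of the 6765 was called. The score did not overlap between the 2 groups, so this fit separates it poorly from the group difference. The part of epithelial content was not tested further. Of 6 measured hepatocyte markers, ALB, TTR, FGB, AHSG and TF stayed under 4 in every array, and SERPINA1 was called, with means of 2.34, near the floor, in S28D and 4.55 in the arrays labelled S35D.

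Other members with large differences from S28D to the arrays labelled S35D were not called. CYP2C42, a CYP2C enzyme, was 8.23, 5.11, 5.34 and 7.03 in S28D and 9.67, 8.38 and 8.61 in the arrays labelled S35D (difference 2.46 ± 0.84, SE, adjusted p = 0.0903). Its other probe set was at the floor in every array. SULT1A3 was 8.31, 9.83, 9.79 and 10.37 in S28D and 5.33, 8.27 and 7.94 in the arrays labelled S35D (-2.40 ± 0.80, SE, adjusted p = 0.0822). Neither pair of groups overlapped. In the fit without 21W35D replicate 2, an array of neither group, both genes passed (adjusted p 0.0309 and 0.0479, limma). That array correlated least with the others of its group, and it entered the spread shared by all groups. The share of all genes called without it is not given. SULT1E1, the estrogen sulfotransferase, had the largest difference (-3.05 ± 1.34, SE, adjusted p = 0.181), with levels of 5.80, 12.71 and 11.26 in the arrays labelled S35D against 11.33 to 13.80 in S28D, so that replicate 1 alone was far below the others. After exchange of the labels the differences of CYP2C42, SULT1A3 and SULT1E1 were -0.13, -0.76 and 0.23. Of the 53 genes of the pathway lists, 5 were called, or 9.43%, close to the background of 9.05%. AKR7A2 (1.58), UGP2 of glucuronic acid supply (0.61), the microsomal transferase MGST3 (0.92), glutathione reductase GSR (0.74) and the peroxidase PRDX1 (0.42) were called higher and none lower, which was 1 of 17 phase I partners, 2 of 6 conjugation genes and 2 of 11 glutathione genes. None was called with exchanged labels or with the epithelial score.

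Over the 4 suckling ages together, the limma F test called 8 of the 46 members, a share below the background of 28% of all genes (30.8% of the 26 that reached 4, against 34.8% of all genes that did so): ALDH1B1, ALDH3A2, ALDH9A1, CYP2D25, CYP3A29, GSTM3, GSTO1 and SULT1A3. In all, 16 members had an unadjusted p under 0.05, against 8153 of 23999 probe sets. The groups of highest mean were not the same for these genes. ALDH1B1, ALDH3A2 and GSTM3 had their highest suckling mean in S14D, CYP3A29 and SULT1A3 in S21D, CYP2D25 in S28D, and ALDH9A1 and GSTO1 in the arrays labelled S35D. GSTM3 had an adjusted p of 0.0498, and 5 of the 20 fits that left out 1 array kept it. Without the arrays labelled S35D, an alternative chosen after seeing the data, ALDH3A2, CYP3A29 and SULT1A3 passed. After exchange of the labels, ALDH3A2, CYP3A29 and GSTM3 kept their call, and GSTO1, ALDH9A1, CYP2D25, ALDH1B1 and SULT1A3 lost it.

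**Figure D4:**
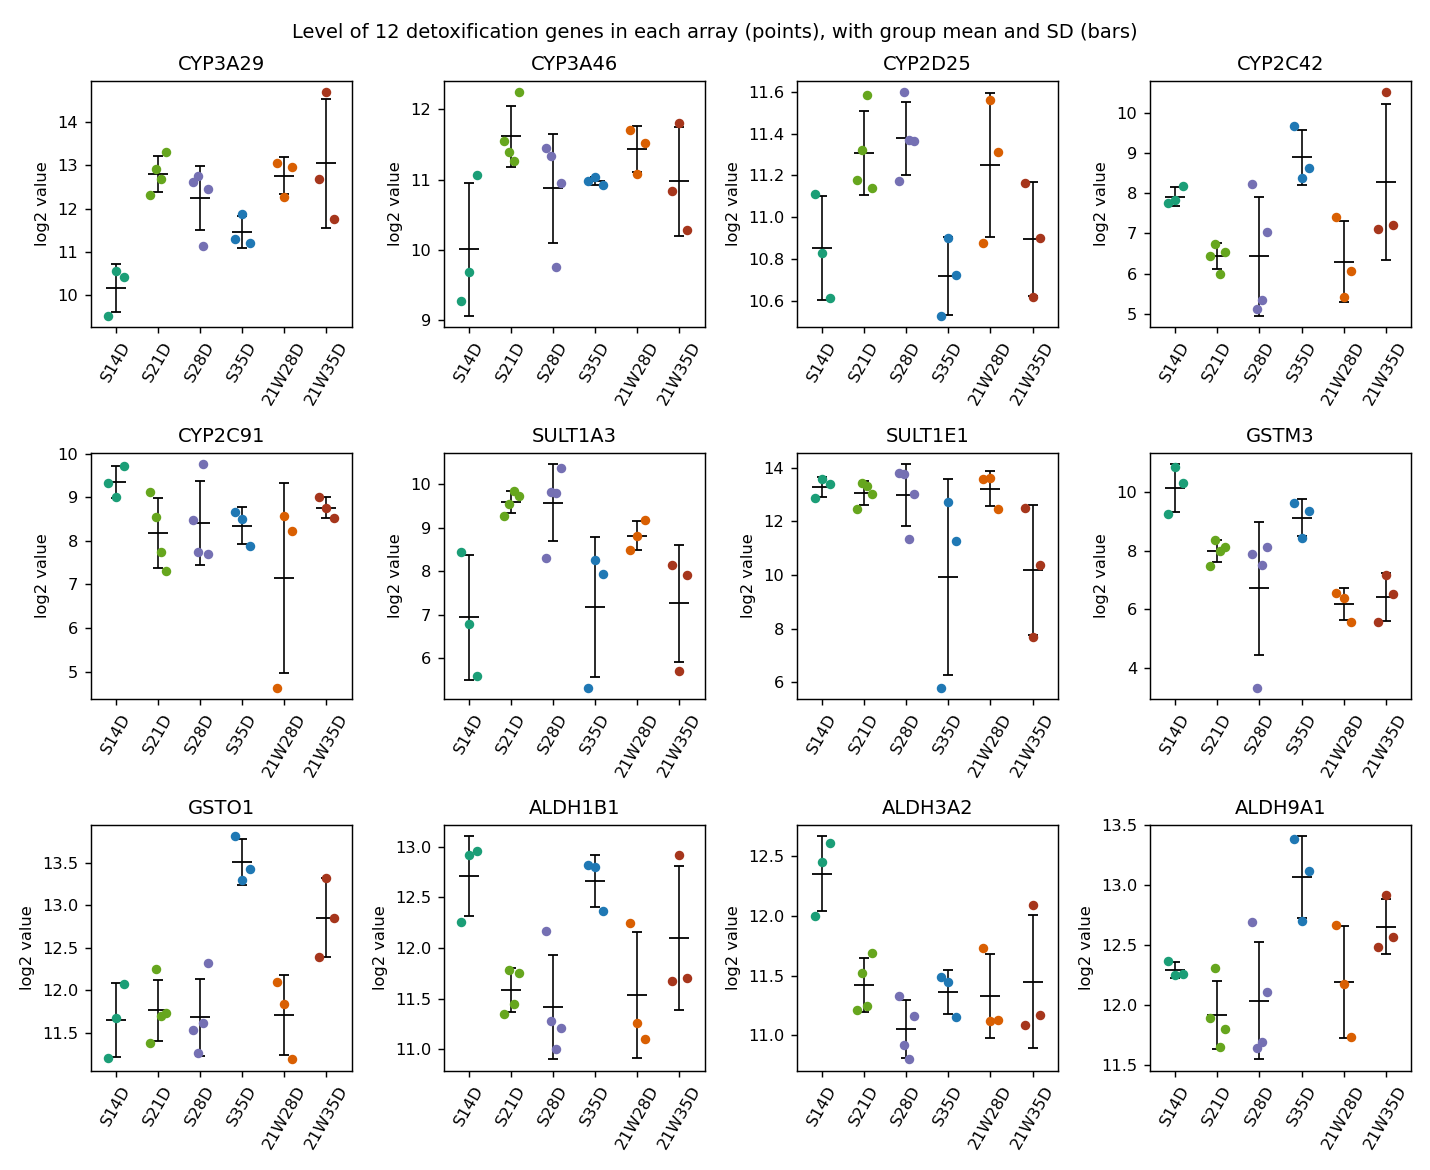
Log2 level (vertical axes, a separate scale per gene) of 12 detoxification genes in each array (points), by group (horizontal axes), with the group mean and SD (bars). CYP3A29 lies at 9.52 to 10.56 in S14D and at 11.15 or more in every later array, GSTO1 at 13.29 to 13.81 in the arrays labelled S35D, and GSTM3 at 5.56 to 7.17 in the 6 arrays labelled as weaned.

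The weaning comparisons asked whether piglets weaned at 21 days differed from those that stayed with the sow. Under the deposited labels no detoxification gene was called by limma from S21D to 21W28D or from S28D to 21W28D. The background there was 0 of 6765 genes (0%). No member had an unadjusted p under 0.05 there, against 606 and 451 of 23999 probe sets. After exchange of the labels S35D and 21W28D, ALDH9A1 and GSTO1 were called in the first of these comparisons, where 5.29% of genes were. The same 2 genes and CYP2D25 were called in the second, where 9.05% were. Under the exchange, the calls from S28D to 21W28D are between weaned and suckling piglets of the same age. From S21D to 21W28D, age and weaning change together and cannot be told apart. Which labels are right was not tested. With the deposited labels none was called from S35D to 21W35D (background 0.0443%), from 21W28D to 21W35D (0.133%) or from S21D to 21W35D (0.443%). The difference between the weaning effects at 28 and 35 days, tested as an interaction, called none (0%). At an unadjusted p under 0.05 (limma), these tests gave, in this order, 4, 4, 7 and 3 of the 46 members. Of all 23999 probe sets they gave 1406, 2126, 2698 and 610. Each member count included ALDH5A1 and CYP1A1, which stayed under 4 log2 units in every array. The methods' t-test at an unadjusted p under 0.05 and a 2-fold difference gave GSTM3 from S21D to 21W28D and from S35D to 21W35D, GSTO1 from 21W28D to 21W35D, and GSTM3, GSTO1 and SULT1A3 from S21D to 21W35D. None of these passed after Benjamini-Hochberg adjustment. The share of all genes that passed the unadjusted rule is not given, so these members cannot be set against a background.

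GSTM3 had the largest difference between weaned and suckling piglets at 35 days. Its levels were 6.57, 6.40 and 5.56 in the arrays labelled 21W28D and 5.58, 7.17 and 6.53 in 21W35D. In suckling piglets they were 7.48 to 8.37 in S21D, 7.89, 3.35, 7.52 and 8.12 in S28D, and 9.61, 8.42 and 9.35 in the arrays labelled S35D. Under the deposited labels, all 6 weaned arrays lay below all suckling arrays except S28D replicate 2. With S35D and 21W28D exchanged this order is lost, since the arrays deposited as S35D would then count as weaned and lie above all S21D and S28D arrays. The differences were -1.81 ± 0.89 from S21D to 21W28D, -0.54 ± 0.89 from S28D to 21W28D, -2.70 ± 0.96 from S35D to 21W35D and -1.56 ± 0.89 from S21D to 21W35D (SE), with adjusted p of 1, 1, 0.656 and 0.51 (limma). Without S28D replicate 2 the difference from S28D to 21W28D was -1.67 (adjusted p 1), the adjusted p from S35D to 21W35D was 0.104 and that from S21D to 21W35D was 0.212. When the labels were exchanged, the differences were 1.13 from S21D to 21W28D, 2.41 from S28D to 21W28D and 0.25 from S35D to 21W35D. The comparisons with S21D share that group's 4 arrays.

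CYP3A29, whose rise between 14 and 21 days was called in every alternative, was not called with weaning. The differences were -0.04 ± 0.57 from S21D to 21W28D, 0.52 ± 0.57 from S28D to 21W28D, 1.59 ± 0.61 from S35D to 21W35D and 0.24 ± 0.57 from S21D to 21W35D (SE), with adjusted p of 1, 1, 0.701 and 1 (limma). After exchange of the labels the first 3 were -1.35, -0.79 and 0.28, with none called. In 21W35D its levels were 12.69, 14.69 and 11.75, and the third value lay within the range of the arrays labelled S35D. CYP2C91, a CYP2C enzyme, had the largest difference from S28D to 21W28D (-1.27 ± 0.78, SE), which came with 1 array, 21W28D replicate 1 at 4.63, while replicates 2 and 3 were 8.57 and 8.23 and S28D ranged from 7.69 to 9.76. After the exchange this difference was -0.07.

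From S21D to 21W35D, a comparison that uses neither S35D nor 21W28D, the largest differences were in the sulfotransferases. SULT1E1 was 12.45 to 13.42 in S21D and 12.51, 7.69 and 10.39 in 21W35D (-2.86 ± 1.34, SE, adjusted p = 0.444), and SULT1A3 was 9.26 to 9.84 and 8.15, 5.72 and 7.92 (-2.33 ± 0.80, SE, adjusted p = 0.291). For both genes 21W35D replicate 2 was lowest. SULT1A3 did not overlap between the groups, and SULT1E1 did. GSTO1 was higher in every 21W35D array than in every S21D array (1.09 ± 0.31, SE, adjusted p = 0.195), and so was ALDH9A1 (0.74 ± 0.27, SE, adjusted p = 0.313), so that neither passed.

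**Figure D5:**
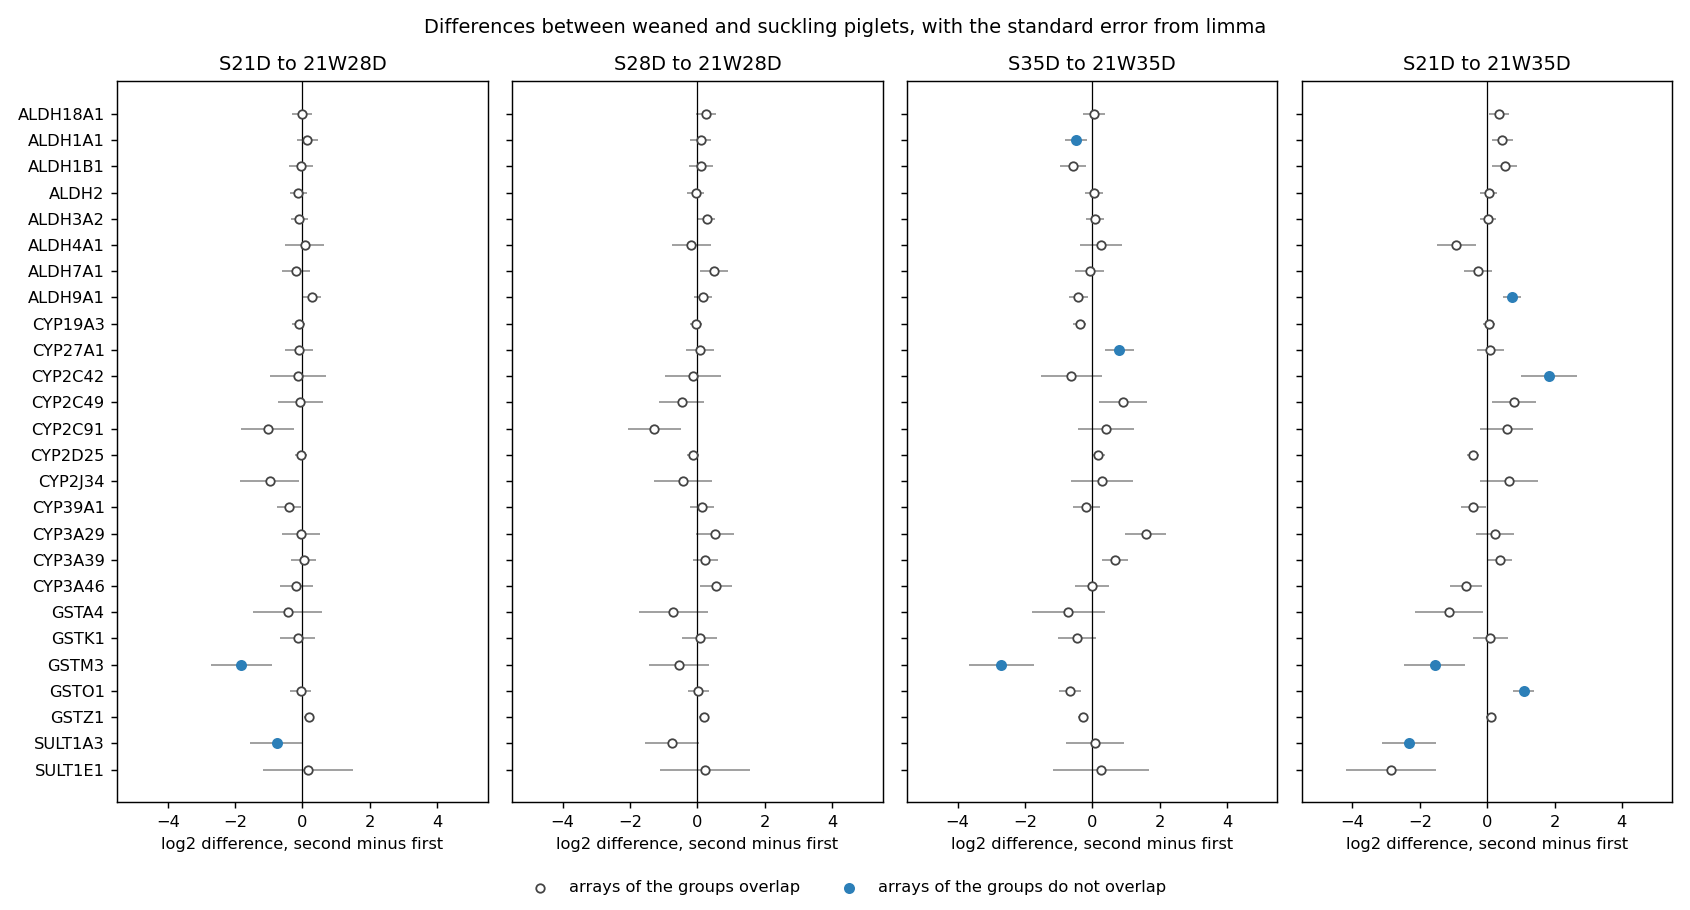
Log2 difference with its standard error (horizontal axis) for the 26 detoxification genes that reached 4 log2 units (vertical axis), weaned minus suckling, in 4 comparisons. Filled points mark genes whose arrays do not overlap between the groups, and none passed an adjusted p of 0.05. Under the deposited labels GSTM3 is filled in 3 of the 4 comparisons, with differences of -1.81, -2.70 and -1.56.

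Single arrays held many of the extreme values. 21W35D replicate 2 held the highest value of 8 of the 26 members, among them CYP3A29 (14.69), CYP2J34 (13.22, others of its group 8.85 and 10.50) and CYP2C42 (10.51, others 7.10 and 7.20). The same array had low values for SULT1E1 (7.69), SULT1A3 (5.72), GSTA4 (3.56, others 6.21 and 6.62) and ALDH4A1 (4.28, others 6.56 and 6.67). S35D replicate 1 held the lowest value of 5 members, with SULT1E1 at 5.80, SULT1A3 at 5.33 and ALDH4A1 at 4.19, and the highest value of 5 others. The B cell scores of these arrays were -3.51 and -2.20, and those of the other arrays of their groups were 0.17 to 0.41 and -0.18 to 0.16. Whether cell content accounts for these values was not tested. ALDH1A1, which makes retinoic acid from retinaldehyde (12.59 to 14.38 over all arrays), ALDH2 (11.85 to 13.15), the mitochondrial enzyme of acetaldehyde removal, and GSTK1 (7.55 to 10.30), a kappa class glutathione transferase, were each among the 3 genes of highest mean in their family and were not called in any comparison.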

How the data were processed

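The deposited log2 values of the 20 arrays are the authors' gcRMA values: probe intensities were corrected for background by GC content, normalized by quantiles and summarised for each probe set before log transformation. GCOS 1.2 and GCRMA (no version given) are named in the submitters' processing notes. All 24123 probe sets were read and 124 controls left out. Arrays were grouped by their deposited labels. limma 3.58.1 in R 4.3.3 was fitted to 23999 probe sets of all 20 arrays with 1 mean per group, Benjamini-Hochberg adjustment was over all of them, and a gene was called at an adjusted p under 0.05. The fit was tested on simulated data. A gene outside the families enters background counts through its brightest probe set.

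Of the 46 genes, 45 matched the Sscrofa11.1 gene table by identifier with the same symbol. Named genes were those called, the 3 of highest mean in each family and the 2 of largest difference in each comparison. The members, lists and tests were chosen with earlier results of these data known. Scores are means of list genes reaching 4 log2 units, centred per gene. Replicate numbers were not treated as pairs, since deviations of same-numbered arrays correlated above 0.1 in 20 of 46 pairs and below -0.1 in 19. Sequences and promoter motifs were not analysed here. Alternatives were a filter on dim probe sets, the mean of all probe sets, only the groups compared, an intensity trend with robust variance, renewed quantile normalization, median centring, the replicate block, the epithelial or B cell score as a covariate, exchanged labels, a fit without the doubted groups, the methods' t-test and each array left out. Python 3.11.15 with matplotlib 3.10.9 drew the figures.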

Additional observations from a re-analysis of the deposited data

Results flagged for a closer look

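GSTM3 in S28D replicate 2 was 3.35, the lowest of the 4 S28D arrays, and the others were 7.52 to 8.12. Its gap to the nearest array was 0.874 of the range of the group. Among the 30 groups of 4 arrays examined for the named genes, this was the only one past the limit of Dixon's test, and chance gives about 1 in 20. The cause was not tested.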

How the results depend on the processing

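The call of CYP3A29 from S14D to S21D held in every fit. The 5 calls from S14D to S21D became 8 with only the groups compared, 2 with the replicate block, 3 with the epithelial score, 2 with the B cell score (added after seeing the data), 2 without the arrays labelled S35D and 21W28D, 9 with the methods' t-test without adjustment, and 1 to 6 with an array left out. The 3 calls from S28D to S35D became 7 with the dim filter, 0 with only the groups compared, with the epithelial score, with exchanged labels or with the adjusted t-test, 1 with the block or the B cell score, and 0 to 7 with an array left out. The 8 calls with age became 4 with the block or the B cell score, 5 with the epithelial score or the unadjusted t-test (ANOVA), 3 with exchanged labels or without S35D, and 2 to 11 with an array left out. Shares over all 6765 genes fell too. From S14D to S21D, 20.3% became 8.25% with the epithelial score and 4.45% with the B cell score. From S28D to S35D, 9.05% became 0% with the epithelial score or exchanged labels and 2.26% with the B cell score. With age, 28% became 13.1% with the epithelial score, 12.1% with the B cell score and 15.2% with exchanged labels. Shares under the other alternatives are not given, so those member counts cannot be set against all genes.

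With exchanged labels, 2 members were called from S21D to 21W28D (ALDH9A1 and GSTO1) and 3 from S28D to 21W28D (these and CYP2D25), where 5.29% and 9.05% of genes were. The unadjusted t-test called 1, 1, 1 and 3 from S21D to 21W28D, S35D to 21W35D, 21W28D to 21W35D and S21D to 21W35D. No share of all genes is given for that test. In the last 3 of these comparisons, leaving out an array gave 0 to 2, the 2 being ALDH5A1 and CYP1A1, under 4 log2 units in every array, without 21W35D replicate 1. CYP2D25 reversed to 0.62 from S28D to S35D with all its probe sets averaged. The causes were not tested. Under the single-gene alternatives for called genes, 366 results kept their call and 158 lost it. Signal near the floor limits the 20 genes under 4. A block by replicate number changed no call in the weaning comparisons.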
